A study of Homo sapiens with 6 samples.

Results

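Interferon-stimulated genes are the genes that cells switch on in answer to interferons. A list of 44 of them was followed in HaCaT, a spontaneously immortalised line of human keratinocytes, in which the gene PSENEN had been silenced with an siRNA. A mismatch siRNA served as the control. The members were named one by one. Their values were found by taking every assembled transcript that carries a member's reference gene name and summing its abundance per gene and library, as TPM (a transcript abundance corrected for transcript length and scaled to the library total). Of the 44 members, 43 had a transcript in at least 1 library, and 39 reached 1 TPM in at least 3 of the 6 libraries and were tested. BST2, CMPK2, HERC5 and MX2 were listed below that level, and IFI44L was not detected in any library. In the whole series the files name 27988 genes, of which 15647 were tested.

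The series holds 3 libraries of total RNA per group. One group received 100 pmol of siRNA against PSENEN, which encodes a subunit of the membrane protease γ-secretase. The other group received the mismatch siRNA, for which no amount is recorded here. Both were transfected with Lipofectamine 2000 in high-glucose medium with fetal calf serum, so the lipid reagent and an siRNA are common to all 6 libraries; a group given the reagent alone is not analysed here. RNA was taken at 48 and at 72 h, per the labels, which leave it unsaid from which time the sequenced RNA came. They also do not say that the libraries of a group came from separate cultures, so the p-values measure the spread between these libraries, which may be technical. HaCaT is 1 line, so nothing here samples different donors.

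When a type I interferon binds its receptor, the kinases JAK1 and TYK2 activate STAT proteins, and STAT2 joins IRF9 in the factor ISGF3. ISGF3 binds a promoter element called the interferon-stimulated response element, and the genes it turns on sense viral RNA, block translation and membrane fusion, conjugate ISG15 to other proteins or amplify the response. Keratinocytes are known to make interferon kappa of their own, and cells kept without added interferon hold many of these genes at a low resting level.

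That promoter element can be read in the members themselves, and 8 stretches are shown. All come from genes with a match whose PSENEN siRNA libraries all lay below the mismatch siRNA libraries. Members with a match but overlapping groups, such as OAS3 and IFIH1, are not shown, so the stretches do not tie the element to lower levels. RefSeq promoter windows (GRCh38.p14, 250 bases before to 50 bases after a start site) were matched by symbol for 34 of the 44 members. The motif searched was GAAANNGAAA on either strand, which reads TTTCNNTTTC on the other strand, and overlapping matches were kept. It occurred in 22 of the 34 members (64.7%), against 3.57% of all 35116 windows and 4.38% of the 27305 genes in the table. Each stretch has 70 bases, is written 5′ to 3′ on the strand of its gene, and has the matches in capitals. They lie at chr14:94110601-94110670 (plus strand) for IFI27, chr1:27672256-27672325 (minus) for IFI6, chr7:93118086-93118155 (minus) for SAMD9, chr10:89392480-89392549 (plus) for IFIT1, chr10:89327835-89327904 (plus) for IFIT3, chr1:1013350-1013419 (plus) for ISG15, chr4:168318776-168318845 (minus) for DDX60 and chr11:320866-320935 (minus) for IFITM3.
IFI27: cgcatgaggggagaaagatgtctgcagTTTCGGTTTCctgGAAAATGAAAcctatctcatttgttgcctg
IFI6: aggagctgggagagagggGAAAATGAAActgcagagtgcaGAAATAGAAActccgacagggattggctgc
SAMD9: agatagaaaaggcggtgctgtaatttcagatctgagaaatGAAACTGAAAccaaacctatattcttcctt
IFIT1: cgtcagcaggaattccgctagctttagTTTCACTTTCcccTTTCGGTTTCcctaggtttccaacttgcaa
IFIT3: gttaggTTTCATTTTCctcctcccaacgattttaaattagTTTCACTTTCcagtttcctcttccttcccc
ISG15: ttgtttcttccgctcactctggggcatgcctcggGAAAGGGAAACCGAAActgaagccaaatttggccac
DDX60: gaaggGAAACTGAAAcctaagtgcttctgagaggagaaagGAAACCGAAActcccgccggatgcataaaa
IFITM3: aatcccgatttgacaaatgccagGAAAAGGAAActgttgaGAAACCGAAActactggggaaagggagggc

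In these stretches SAMD9 has 1 match and each of the other genes has 2. In ISG15 they overlap, so that the second begins inside the first. In IFI27 one is read on each strand. PARP9 and DTX3L, which are transcribed away from each other on chromosome 3, share a single match at chr3:122564332-122564341, read as GAAACTGAAA on the strand of DTX3L. The element TTCNNNGAA, which binds STAT dimers, occurred in at least 1 window of 11 of the 34 matched members. It was in 7.66% of all windows, which is a share per window and not per gene. The entries of DDX58, DHX58, IRF7, USP18, IFIT2, OAS2, OASL, MX2, TRIM22 and IFITM2 were not matched.

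PSENEN itself was at 1.75, 2.08 and 1.496 TPM in PSENEN siRNA libraries 1 to 3 and at 6.58, 8.85 and 6.55 TPM in mismatch siRNA libraries 1 to 3. The groups did not overlap, and 24.2% of the mean control level was left. The difference was -1.58 (SE 0.183, limma, adjusted p = 0.0471). Here and below a difference is in log2(TPM + 1), PSENEN siRNA minus mismatch siRNA, which understates the change of genes at low levels, and p-values are adjusted over all 15647 genes tested. The adjusted p of PSENEN was between 0.110 and 0.155 when any 1 of the 6 libraries was left out.

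Most members were lower with the PSENEN siRNA, and few of them passed the test. Their summed level was 694, 711 and 756 TPM in PSENEN siRNA libraries 1 to 3 and 986, 1002.5 and 1007 TPM in the mismatch siRNA libraries. IFITM3 makes up a large part of that sum; without it the sums were 474, 506 and 512 TPM against 691, 694 and 656 TPM. Both ways the 3 PSENEN siRNA libraries lay below the 3 controls. In bulk RNA, fewer cells expressing a gene and less RNA per cell cannot be told apart.

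SAMD9 and IFI27 fell past the test, 2 of 39 tested members, where 0.281% of all tested genes were called lower. No tested member was called higher, where 0.128% of all tested genes were, and none was higher at an unadjusted p under 0.05, where 4.49% of all tested genes were. Lower at an unadjusted p under 0.05 were 22 of the 39 (56.4%), against 8.49% of all tested genes. In 25 of the 39 (64.1%) every PSENEN siRNA library lay below every mismatch siRNA library, against 13.7% of all tested genes. In the other direction the groups were apart for none, against 8.21%. The difference was negative for 37 of 39 members, against 54.6% of all tested genes, and its median was -0.61 against -0.04.

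The filter bears on these counts, because IFI27, XAF1 and RSAD2 passed it only through the mismatch siRNA libraries. IFI6, SAMD9L and ISG20 leaned on them too, reaching 1 TPM in 3 mismatch siRNA libraries and in only 1 PSENEN siRNA library each. With the filter set on the mean of all 6 libraries, an alternative added after the data were seen, 37 members were tested. Of these, 35 had a negative difference against 54.5% of all genes, 23 had groups apart in the lower direction against 13.6%, and SAMD9 alone was called, where 0.181% of genes were. With no filter, 41 of 43 members had a negative difference against 55.3% of all genes, and 27 had groups apart in the lower direction against 10.1%. SAMD9 and IFI27 were then called, where 0.107% of genes were called lower.

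**Figure D1:**
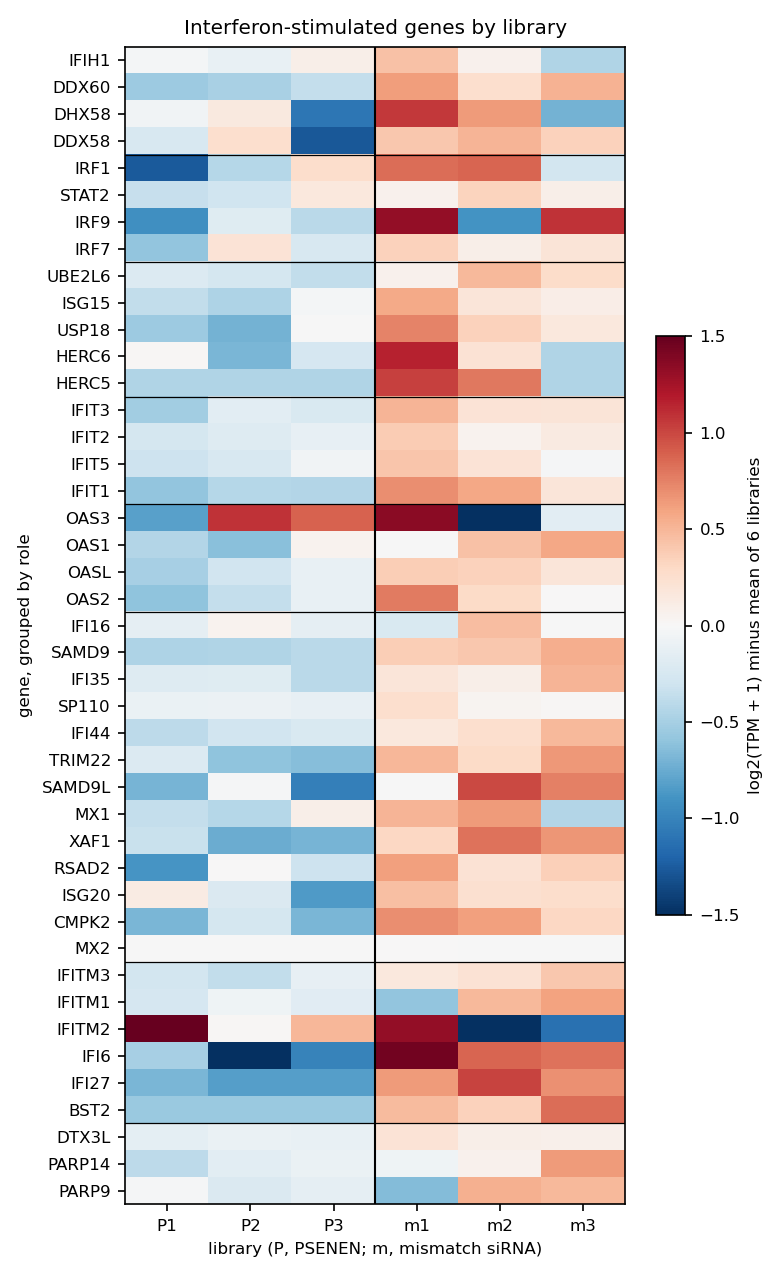
Level of each of the 43 listed members in each library, as log2(TPM + 1) minus the gene's mean over the 6 libraries, with genes grouped by role between the horizontal lines; the colours stop at the ends of the scale. Columns P1 to P3 are PSENEN siRNA libraries and m1 to m3 mismatch siRNA libraries; the left block is mostly blue, with OAS3 and IFITM2 among the exceptions.

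The RNA sensors recognise viral double-stranded or uncapped RNA. All 4 were tested, all had a negative difference and none was called; the median was -0.75. DDX60 (chr4:168216293-168318807), a helicase that assists RIG-I, was at 4.06, 4.26 and 4.76 TPM with the PSENEN siRNA and at 10.4, 7.80 and 9.63 TPM with the mismatch siRNA. Its groups were far apart next to the spread within each, and the difference was -0.93 (SE 0.157, adjusted p = 0.0864). Assembled transcripts without a gene name that share an intron with DDX60 were found only in PSENEN siRNA libraries 1 and 3. With them added DDX60 was at 5.18, 4.26 and 6.34 TPM against the same control levels. The groups stayed apart, with a difference of -0.72 and an adjusted p of 0.160. DDX58 (chr9:32455705-32526324), which encodes the sensor RIG-I, was at 1.96, 3.17 and 0.458 TPM against 3.62, 4 and 3.46 TPM. The 3 control libraries lay above all 3 others, with a difference of -0.84 and an adjusted p of 0.431. That gap depends on which transcripts are counted, as the split transcripts below show.

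DHX58, which encodes the regulator LGP2, was at 2.64, 3.21 and 0.788 TPM against 6.92, 4.90 and 1.31 TPM. The 3rd library of each group was the lowest of its group, and the groups overlapped (difference -0.66). IFIH1 (chr2:162267079-162318703), which encodes the long-RNA sensor MDA5, averaged 8.62 ± 0.688 TPM (SD, n = 3) against 9.16 ± 3.04 TPM. It stood nearest to no difference of all tested members (-0.04). That sign turned with FPKM, median-of-ratios scaling, quantile normalization and assembled bases, and also without PSENEN siRNA library 2 (0.01) or mismatch siRNA library 1 (0.17).

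Of the transcription factors that carry and amplify the interferon signal, 4 were tested, all with a negative difference. None was called, and in none were the groups apart. STAT2 (chr12:56341597-56360155), the subunit particular to interferon signalling through ISGF3, averaged 13.7 ± 2.96 TPM against 17.3 ± 1.93 TPM, with a difference of -0.32. Its PSENEN siRNA library 3 lay inside the control range. IRF9, the DNA-binding subunit of ISGF3, was at 2.81, 5.36 and 4.46 TPM against 17.0, 2.89 and 14.3 TPM. Controls 1 and 3 were high and control 2 was as low as the PSENEN siRNA libraries. IRF9 shares 49.5% of its 31-base words with other annotated genes, mostly with AL136295.5, which overlaps it on the same strand, so its value is uncertain.

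IRF1 (chr5:132481609-132490798), an early activator of interferon and inflammatory genes, was at 8.60, 16.1 and 26.7 TPM against 40.3, 41.3 and 18.0 TPM. PSENEN siRNA library 3 exceeded control 3, and the difference of -0.96 had an SE of 0.477 and an adjusted p of 0.458. IRF7, the factor that drives interferon alpha genes, averaged 2.18 ± 0.893 TPM against 3.15 ± 0.364 TPM, with overlapping groups.

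The ISG15 system attaches the small protein ISG15 to other proteins and takes it off again. The 4 tested members had negative differences with a median of -0.59 and none was called. In ISG15, UBE2L6 and USP18 the groups were apart. ISG15 (chr1:1001138-1014540), the modifier itself, was at 15.8, 14.7 and 20.2 TPM against 31.1, 23.5 and 22.2 TPM. PSENEN siRNA library 3 came within a few TPM of control 3. The difference was -0.57 (SE 0.183, adjusted p = 0.288), and all of the level was assigned to transcript ENST00000379389. UBE2L6 (chr11:57551656-57568284), the conjugating enzyme that loads ISG15, was at 50.8, 48.6 and 45.1 TPM against 61.3, 82.6 and 70.9 TPM. Its PSENEN siRNA libraries sat close together below all controls, with a difference of -0.55 (SE 0.133, adjusted p = 0.170).

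USP18, the protease that removes ISG15 and damps receptor signalling, was at 1.28, 1.04 and 2.32 TPM against 4.58, 3.24 and 2.72 TPM (difference -0.84, adjusted p = 0.279). The groups were apart by a small margin, and 30.8% of its 31-base words occur in other genes, mostly in USP41. HERC5 and HERC6 are neighbouring genes on chromosome 4 that encode large ligases of the HERC family, HERC5 being the human ISG15 ligase. HERC5 was listed at 0 throughout the PSENEN siRNA group, with controls at 1.80, 1.37 and 0 TPM. With unnamed transcripts added it was at 2.60 TPM in PSENEN siRNA library 3 and at 2.66, 1.37 and 2.33 TPM in the controls, so that it was not absent from that library. HERC6 was at 1.14, 0.310 and 0.766 TPM against 3.68, 1.44 and 0.545 TPM, with overlapping groups (difference -0.61).

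The IFIT proteins bind foreign RNA and hold back its translation, and their genes sit side by side on chromosome 10. All 4 had groups apart in the lower direction, with a median difference of -0.50, and none was called. IFIT1 (chr10:89392546-89406486), which binds RNA whose cap lacks a methyl group, was at 4.99, 5.74 and 5.67 TPM against 13.7, 12.6 and 9.24 TPM. Every control was well above the tight group of PSENEN siRNA libraries, and 46.2% of the mean level was left (difference -0.97, SE 0.177, adjusted p = 0.0989). All of it was assigned to ENST00000371804, whose annotated start lies just downstream of the motif matches printed above.

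IFIT3 (chr10:89327894-89340971), the partner that stabilises IFIT1, was at 19.0, 24.9 and 23.6 TPM against 40.2, 32.3 and 31.8 TPM (difference -0.61, adjusted p = 0.187). Its transcript from the upstream start, ENST00000371818, averaged 15.5 ± 1.20 TPM against 25.7 ± 5.01 TPM and made up 72.0% of the gene. The transcript from the downstream start, ENST00000371811, averaged 6.97 ± 1.91 TPM against 9.05 ± 0.816 TPM. So the gap between the groups was larger for the upstream start, though the difference between the 2 transcripts was not tested. IFIT2 (chr10:89283694-89309276) was at 15.1, 15.8 and 16.7 TPM against 24.2, 19.0 and 20.3 TPM. IFIT5 (chr10:89414586-89421001) was at 7.27, 7.70 and 8.87 TPM against 12.7, 10.9 and 9.12 TPM. Both were apart by small margins, with differences of -0.39 and -0.40 and adjusted p of 0.305 and 0.375. The genes IFIT1 to IFIT3 lie opposite LIPA on the other strand. Whether the libraries keep the strand is not given in the sources. Where exons of such a pair overlap, their reads might therefore not be told apart. IRF1, ISG15, OAS1 to OAS3, MX1, RSAD2, CMPK2, XAF1, TRIM22, SP110, IFITM2, IFITM3, IFI6, PARP9 and DTX3L also have an annotated gene opposite them. These are overlaps of whole gene spans, introns included, and overlap of exons was not examined.

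**Figure D2:**
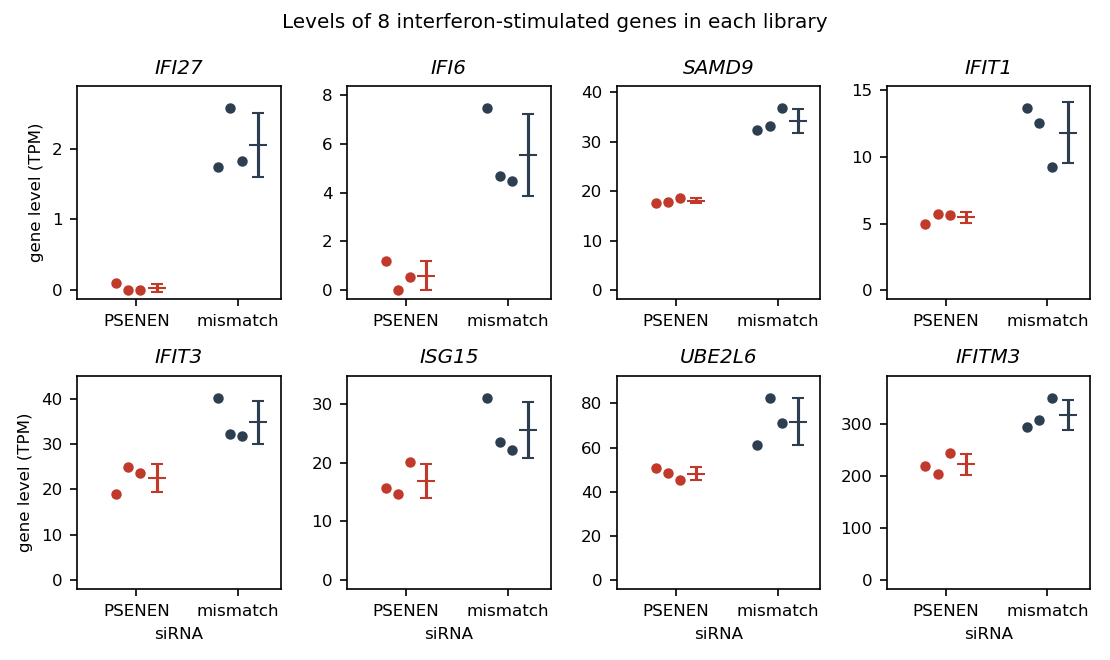
TPM of 8 members in each library (points), by siRNA, with the mean and SD of 3 libraries beside them (bars); each panel has its own axis. In all 8 the highest PSENEN siRNA library lies below the lowest mismatch siRNA library. This held for 25 of the 39 tested members, and none of the others is shown. SAMD9 sits between 17.7 and 18.6 TPM against 32.3 to 36.8 TPM.

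The oligoadenylate synthetases detect double-stranded RNA and make a short messenger molecule in answer to it. Of the 4, none was called, OAS2 and OASL had groups apart in the lower direction, and OAS3 had a positive difference. OASL (chr12:121019111-121039242), a relative without the synthetase activity, was at 6.13, 7.19 and 8.26 TPM against 11.97, 11.8 and 10.3 TPM (difference -0.60, SE 0.151, adjusted p = 0.186). OAS2 (chr12:112978395-113011723) was at 2.51, 3.17 and 3.95 TPM against 8.19, 5.51 and 4.37 TPM (difference -0.72, adjusted p = 0.320). OAS1 (chr12:112906777-112933222) was at 7.08, 6.10 and 10.3 TPM against 9.89, 13.8 and 15.3 TPM. Its PSENEN siRNA library 3 lay just above control 1 (difference -0.67, adjusted p = 0.326).

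OAS3 (chr12:112938352-112973249) was at 8.74, 35.0 and 30.5 TPM against 42.5, 2.36 and 14.3 TPM. These values scatter within each group by more than they differ between groups, and the difference of 0.77 had an SE of 0.995. Without mismatch siRNA library 2 it was -0.21. When assembled transcripts that share an intron with OAS3 were added, the levels became 34.2, 35.0 and 34.9 TPM against 42.5, 51.7 and 49.0 TPM. Counted so, the PSENEN siRNA libraries agree closely and lie below all controls, with a difference of -0.44 and an adjusted p of 0.153.

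The largest role group holds other antiviral effectors: 11 were tested, all with negative differences, 1 was called, and 9 had groups apart in the lower direction. SAMD9 (chr7:93099513-93118023), a restriction factor of poxviruses, was at 17.7, 17.8 and 18.6 TPM with the PSENEN siRNA and at 32.3, 33.3 and 36.8 TPM with the mismatch siRNA. Its libraries hardly varied within a group, and 52.9% of the mean level was left. SAMD9 fell by 0.88 (SE 0.104, adjusted p = 0.0471). No fit with 1 library left out kept the call. Leaving out PSENEN siRNA library 1, 2 or 3 gave an adjusted p of 0.158, 0.166 or 0.154, and leaving out control library 1, 2 or 3 gave 0.105, 0.157 or 0.121. The difference stayed between -0.92 and -0.83 in these fits. Transcript ENST00000379958 made up 88.6% of the level.

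SAMD9L (chr7:93130055-93148369), its neighbour and paralog, was at 0.626, 1.60 and 0.295 TPM against 1.61, 4.25 and 3.46 TPM. PSENEN siRNA library 2 nearly reached control 1, and the difference was -1.16 (SE 0.373, adjusted p = 0.287). SAMD9 and SAMD9L share 0.0292% of the 31-base words of SAMD9, so their values can be told apart. With unnamed transcripts added SAMD9L was at 3.95, 1.60 and 0.295 TPM against 3.19, 4.25 and 3.46 TPM, the groups overlapped, and the difference was -0.85. XAF1 (chr17:6755447-6775647), which favours apoptosis by opposing the inhibitor XIAP, was at 0.532, 0.149 and 0.190 TPM against 1.39, 2.40 and 2.05 TPM. Of its mean control level 14.9% was left (difference -1.19, SE 0.225, adjusted p = 0.109). That share rests on named transcripts: with the unnamed ones added XAF1 was at 0.532, 1.99 and 1.20 TPM against 3.29, 3.63 and 2.05 TPM, with the groups still apart, by a small margin, and a difference of -0.86.

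TRIM22 (chr11:5689689-5737089), an antiviral ubiquitin ligase, was at 2.63, 1.77 and 1.70 TPM against 4.92, 4.14 and 5.61 TPM. Its groups were well apart (difference -0.96, SE 0.195, adjusted p = 0.123). IFI44 (chr1:78649796-78664078) was at 3.87, 4.22 and 4.45 TPM against 6.15, 6.62 and 7.96 TPM. IFI35 (chr17:43006725-43014456) was at 5.63, 5.65 and 4.70 TPM against 7.54, 7.03 and 9.79 TPM. Both had groups apart, with differences of -0.61 and -0.52 and adjusted p of 0.185 and 0.297.

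RSAD2 encodes viperin, an enzyme that makes a chain-terminating nucleotide from CTP, and CMPK2, a nucleotide kinase, starts beside it on the other strand of chromosome 2. RSAD2 (chr2:6865806-6898239) was at 0, 0.844 and 0.485 TPM against 1.82, 1.15 and 1.36 TPM (difference -0.80, adjusted p = 0.316). CMPK2 (chr2:6840570-6866635) was listed at 0, 0.333 and 0 TPM against 1.60, 1.45 and 0.990 TPM and missed the filter. For both, all controls lay above all PSENEN siRNA libraries. Adding the unnamed transcripts ended this for CMPK2, whose levels became 2.16, 0.333 and 1.55 TPM against 1.60, 1.45 and 0.990 TPM. The same addition put RSAD2 at 0.574 TPM in PSENEN siRNA library 1. The groups of RSAD2 stayed apart, with a difference of -0.58.

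ISG20, an exonuclease that degrades RNA, was at 1.01, 0.586 and 0.0284 TPM against 1.53, 1.18 and 1.21 TPM (difference -0.63, adjusted p = 0.418). With unnamed transcripts added it was at 1.01, 0.586 and 1.17 TPM against 1.53, 2.18 and 1.21 TPM. The groups then stayed apart by a small margin, with a difference of -0.45. SP110, a nuclear body protein, was at 5.61, 5.64 and 5.49 TPM against 7.39, 6.28 and 6.17 TPM. SP110 shows how small a gap can separate groups: its difference was -0.21, with an adjusted p of 0.565. IFI16 (chr1:158999968-159055155), a nuclear sensor of DNA, was the second most abundant member, at 95.5, 108.9 and 95.3 TPM against 89.2, 144.5 and 104.9 TPM. The groups overlapped, and the difference of -0.15 became 0.04 without mismatch siRNA library 2.

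The MX proteins are large GTPases that trap viral particles. MX1 averaged 1.00 ± 0.407 TPM against 1.88 ± 1.03 TPM, with control 3 at 0.711 TPM below every PSENEN siRNA library. MX2 was listed at 0 in 5 libraries and at 0.00633 TPM in mismatch siRNA library 1. IFI44L, next to IFI44, had no transcript in any library.

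The membrane group joins the IFITM proteins, which block fusion of viral and cell membranes, to tetherin (BST2), IFI6 and IFI27. IFI27 (chr14:94104836-94116698), a mitochondrial and nuclear membrane protein, was listed at 0.0944, 0 and 0 TPM with the PSENEN siRNA and at 1.74, 2.57 and 1.83 TPM with the mismatch siRNA. So the transcript was nearly missing from one group and present in every library of the other. IFI27 fell by 1.55 (SE 0.190, adjusted p = 0.0471). With PSENEN siRNA library 1, 2 or 3 left out the adjusted p was 0.149, 0.166 or 0.159, and without any 1 of the controls the gene no longer passed the filter. With the filter on the mean of all libraries the adjusted p was 0.0629. ENST00000621160 made up 56.7% of the level and was at 0 in all PSENEN siRNA libraries.

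IFI6 (chr1:27666061-27672218), a membrane protein that opposes flavivirus replication, had the most negative difference of the tested members. It was listed at 1.20, 0 and 0.559 TPM against 7.48, 4.71 and 4.47 TPM. The highest PSENEN siRNA library lay below the lowest control, and 10.6% of the mean control level was left (difference -2.09, SE 0.343, adjusted p = 0.0831). Transcript ENST00000361157 held 75.9% of the level and ENST00000362020 held 24.1%. BST2 (chr19:17402939-17405648) was listed at 0 throughout the PSENEN siRNA group, with controls at 1.04, 0.858 and 1.62 TPM, and missed the filter. When unnamed assembled transcripts were added it was at 0.620 and 0.853 TPM in PSENEN siRNA libraries 1 and 2, so that it was not absent from them.

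IFITM3 (chr11:319669-327537) was the most abundant member, at 219, 204 and 244 TPM against 295, 308 and 351 TPM. All PSENEN siRNA libraries lay below all controls (difference -0.51, SE 0.110, adjusted p = 0.137). IFITM1 (chr11:313506-315272) was at 46.7, 53.3 and 49.5 TPM against 36.8, 78.7 and 85.6 TPM. Control 1 was the exception, and with unnamed assembled transcripts added it stood at 82.8 TPM. IFITM1 was then called lower, with a difference of -0.72 and an adjusted p of 0.0447. The named transcript also differed between libraries: ENST00000328221 held nearly all of the level in library 1 of each group, and ENST00000408968 in libraries 2 and 3.

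IFITM2 (chr11:307631-315272) was at 51.3, 15.8 and 22.6 TPM against 40.4, 2.21 and 6.69 TPM, and its difference of 1.45 (SE 0.960, adjusted p = 0.572) was the most positive of the tested members. Library 1 was the highest in both groups. Its annotation reaches the end of IFITM1. The 3 IFITM genes share 36.4% (IFITM3), 35.3% (IFITM1) and 45.2% (IFITM2) of their 31-base words with other genes, in large part with each other, so reads can be split between them and their single values are uncertain.

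PARP9, DTX3L and PARP14 are near neighbours on chromosome 3; PARP9 and DTX3L work as a complex that modifies proteins with ubiquitin and ADP-ribose. All 3 differences were negative, none was called, and the median of -0.24 was the least negative among the role groups. DTX3L (chr3:122564238-122575203) was at 29.7, 30.8 and 30.6 TPM against 38.2, 35.2 and 35.1 TPM. PARP14 (chr3:122680618-122730840) was at 20.9, 24.7 and 25.7 TPM against 26.3, 28.97 and 43.6 TPM. In both the groups were apart by small margins, with differences of -0.24 and -0.43 and adjusted p of 0.357 and 0.451. PARP9 (chr3:122527924-122564577) averaged 8.22 ± 0.661 TPM against 10.6 ± 4.53 TPM, with control 1 the lowest of all 6 libraries.

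**Figure D3:**
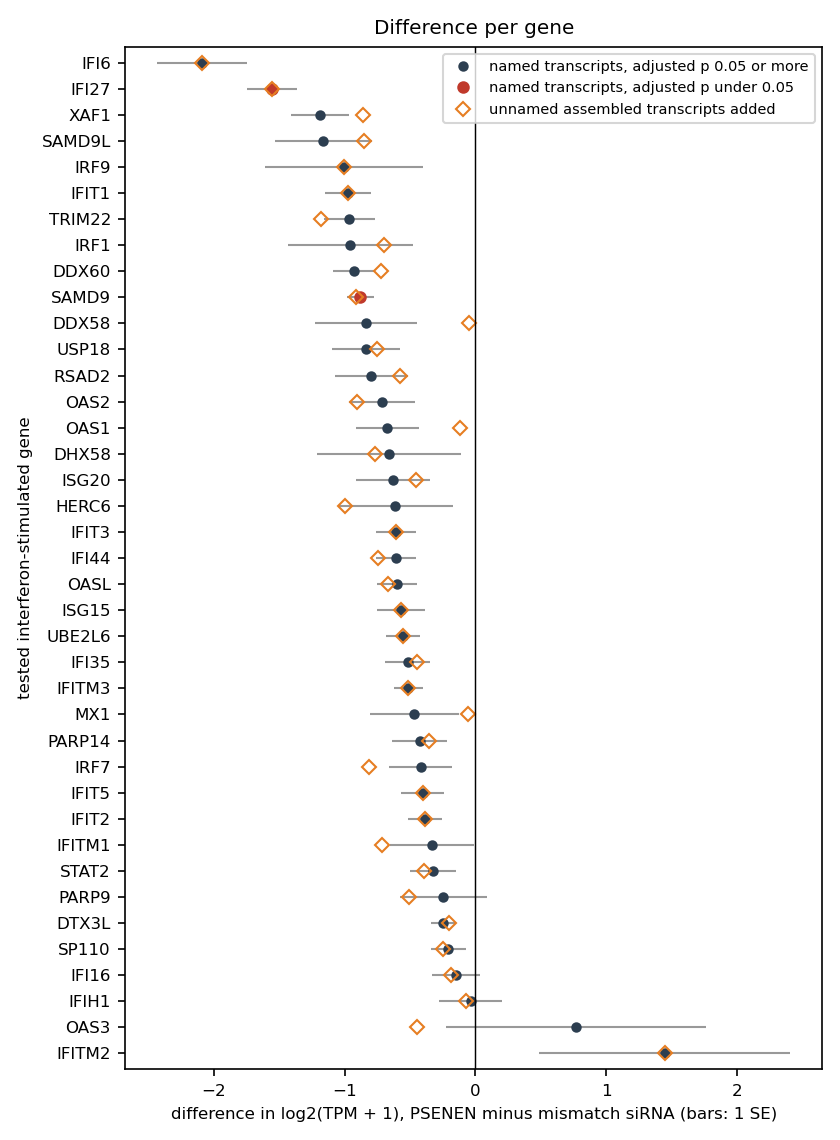
Difference in log2(TPM + 1), PSENEN siRNA minus mismatch siRNA, for each of the 39 tested members (filled points, with 1 SE), and the same with unnamed assembled transcripts added (open diamonds). Points run from -2.09 for IFI6 to 1.45 for IFITM2, the 2 red points (SAMD9 and IFI27) passed the test, and the diamonds of OAS3, DDX58, OAS1 and IFITM1 lie far from their points.

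Part of the scatter inside the groups went with how the transcripts were named. An assembled transcript that departs from the reference structure carries no gene name, even where it shares introns with a member, and the rule leaves it out. The share of a library's TPM in such transcripts was 5.37 to 5.74% with the PSENEN siRNA and 6.07 to 6.80% with the mismatch siRNA, so the groups did not overlap in it. With these transcripts added, 41 members were tested. Of them 40 had a negative difference against 56.6% of all genes, and 26 had groups apart in the lower direction against 14.5%. IFI27, IFITM1 and SAMD9 were called lower, where 0.347% of genes were.

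The addition moved single members in both directions. For DDX58 it gave 5.44, 7.77 and 8.95 TPM against 11.3, 8.04 and 4.62 TPM, and the groups overlapped fully (difference -0.05). OAS1 went to -0.12 and MX1 to -0.06. IRF7 went the other way, to 2.40, 5.32 and 3.31 TPM against 7.34, 6.88 and 6.63 TPM, with the groups apart and a difference of -0.81. PARP9 came to 14.3, 14.6 and 15.8 TPM against 24.1, 16.3 and 25.2 TPM, also apart. DHX58 came apart too, at 3.33, 3.21 and 5.46 TPM against 10.1, 5.68 and 6.81 TPM. The gap between the groups closed for PARP14, at 24.4, 33.0 and 27.6 TPM against 31.1, 35.4 and 43.6 TPM (difference -0.36). It closed for IFI35 as well, at 6.47, 8.24 and 4.70 TPM against 7.54, 9.81 and 9.79 TPM (difference -0.45). So DDX58, SAMD9L, IFI35 and PARP14 lost their separation among the tested members, and DHX58, IRF7, OAS3, IFITM1 and PARP9 gained one.

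For ISG15, UBE2L6, IRF9, the IFIT genes, IFITM2, IFITM3, IFI6 and IFI27 no unnamed transcript was added in any library, so the addition left their values unchanged. An unnamed transcript without introns, or sharing as many introns with another gene, could not be added. IRF9, IFIT2, IFITM2 and IFITM3 have an annotated gene overlapping them on the same strand. For them the effect of naming was not tested further.

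**Figure D4:**
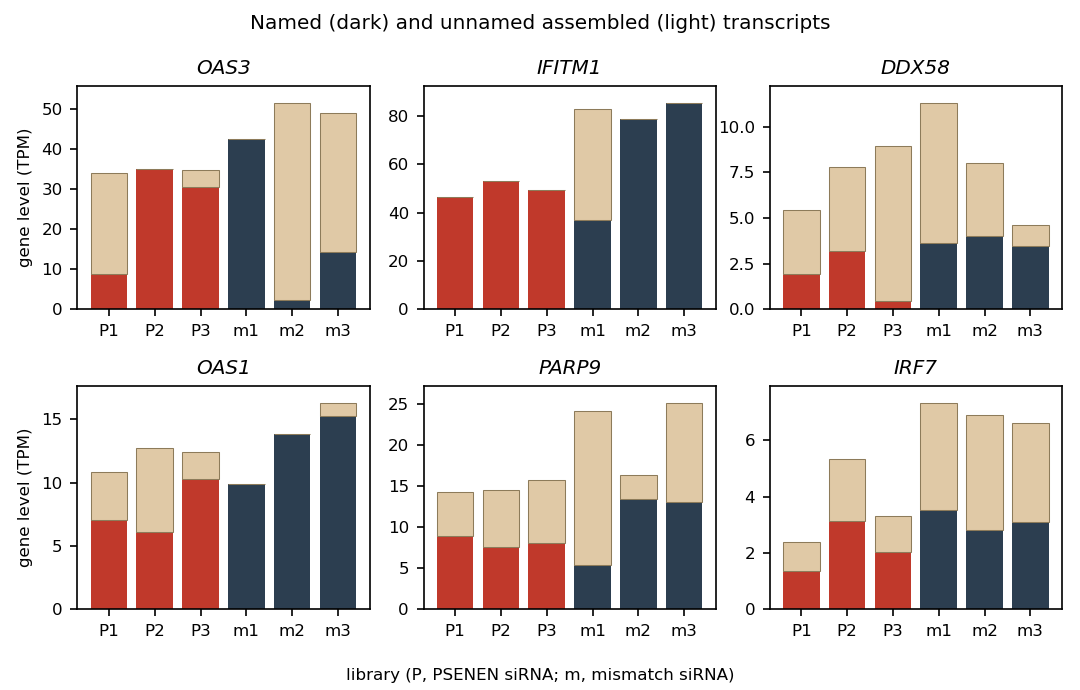
TPM in each library for 6 members, split into named transcripts (dark; red for PSENEN siRNA libraries P1 to P3, blue for mismatch siRNA libraries m1 to m3) and unnamed assembled transcripts that share an intron (light). For OAS3 the dark bars run from 2.36 to 42.5 TPM while the whole bars of P1 to P3 stand at 34.2 to 35.0 TPM, below those of m1 to m3.

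The share of the control level that was left was smaller for members at low levels. The 14 tested members with a mean under 5 TPM over the 6 libraries stood at a median of 41.5% of the mismatch level, where the tested genes of that range stood at 97.3%. For the 13 members from 5 to 20 TPM the median was 65.6%, and for the 12 at 20 TPM or more it was 71.1%, where all tested genes stood at 96.6% and 96.7%. Across the 39 genes, level and remaining share had a Spearman rho of 0.698. This is a description: the genes share the same 6 libraries, both measures use the same values, and IFI27, XAF1 and RSAD2 passed the filter only through the controls. IFI6, SAMD9L and ISG20, also under 5 TPM, reached 1 TPM in 3 controls and in only 1 PSENEN siRNA library each. So the filter bears on the median share of the lowest range and on the rho. The shares also count named transcripts only. Among members under 5 TPM, adding unnamed transcripts raised the share of DDX58, MX1 and XAF1, for example, and lowered that of IRF7. The tiers were not formed again with unnamed transcripts.

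Members with and without the promoter motif had similar medians. The 19 tested members with a match had a median difference of -0.57, and in 14 the groups were apart in the lower direction. The 11 without one, among them STAT2, IRF9, IRF1, UBE2L6, HERC6, OAS1, SAMD9L, XAF1 and IFI16, had a median of -0.61, and in 5 the groups were apart. No test was made of this, and a missing match says only that these letters are not in the window. The word TGGTTCT, chosen because earlier results on these data tied it to lower genes, is in the 3′ UTR of 5 of the 39 tested members (12.8%; DTX3L, HERC6, IFIT1, OAS2 and TRIM22), against 21.0% of other tested genes with a 3′ UTR. The 34 members without it had a median difference of -0.59, and those with it -0.72. Other tested genes had medians of -0.04 without it and -0.13 with it. Because the word was picked from these data, a lower median with it was partly set beforehand, and no conclusion is drawn.

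Upstream of the members, 38 gene symbols of interferon production, reception, signalling, nucleic acid sensing and feedback were followed, of which 26 were tested. MB21D1 and CGAS on this list are symbols of the same gene, which was tested as MB21D1. None of the 26 was called, where 0.281% of all tested genes were called lower and 0.128% higher. At an unadjusted p under 0.05, 4 were lower and 0 higher, against 8.49 and 4.49% of all tested genes. In 6 the groups were apart in the lower direction, against 13.7%. The median difference was -0.15. No ligand reached the filter: interferon beta (IFNB1) was at most at 0.102 TPM, interferon epsilon (IFNE) was at 0.722, 0.476 and 3.18 TPM against 0.245, 2.52 and 0.341 TPM. Interferon alpha 1 (IFNA1) was at 0.235, 0.254 and 0.0761 TPM against 0.506, 0.677 and 0.424 TPM, and interferon kappa, lambda and gamma had no transcript in any library. All 6 receptor chains were tested. Of these, 3 had a negative difference, none had groups apart, and the median was -0.00410.

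SOCS3, a feedback inhibitor of JAK kinases, was at 3.19, 2.93 and 3.21 TPM against 5.56, 5.41 and 4.89 TPM (difference -0.61, adjusted p = 0.152). Its groups were well apart. PTPN2, ADAR and STAT3 were also apart in the lower direction, with differences of -0.32, -0.18 and -0.16. The kinases JAK1 and TYK2 overlapped between groups, with differences of -0.13 and -0.12.

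A second list held 40 other genes known to respond to interferon, of which 37 were tested; the lists overlap in part. None was called. At an unadjusted p under 0.05, 12 were lower and 2 higher, against 8.49 and 4.49% of all tested genes. The difference was negative for 31, against 54.6% of all tested genes, with a median of -0.27. The groups were apart for 14 in the lower direction, against 13.7% of all tested genes. In the higher direction they were apart for TRIM14 and SHISA5, against 8.21%. EPSTI1 was at 0.363, 0.334 and 0 TPM against 2.19, 1.38 and 1.10 TPM (difference -1.04, adjusted p = 0.159). PSMB9, a subunit of the immunoproteasome, was at 48.0, 43.4 and 42.5 TPM against 66.9, 72.3 and 69.8 TPM (difference -0.63, adjusted p = 0.0743). IFI30, a lysosomal reductase of antigen processing, and ZC3HAV1, which binds CpG-rich viral RNA, had differences of -0.66 and -0.58. TRIM14 went against them, at 23.6, 26.5 and 23.4 TPM against 19.9, 13.2 and 14.1 TPM (difference 0.63, adjusted p = 0.228).

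**Figure D5:**
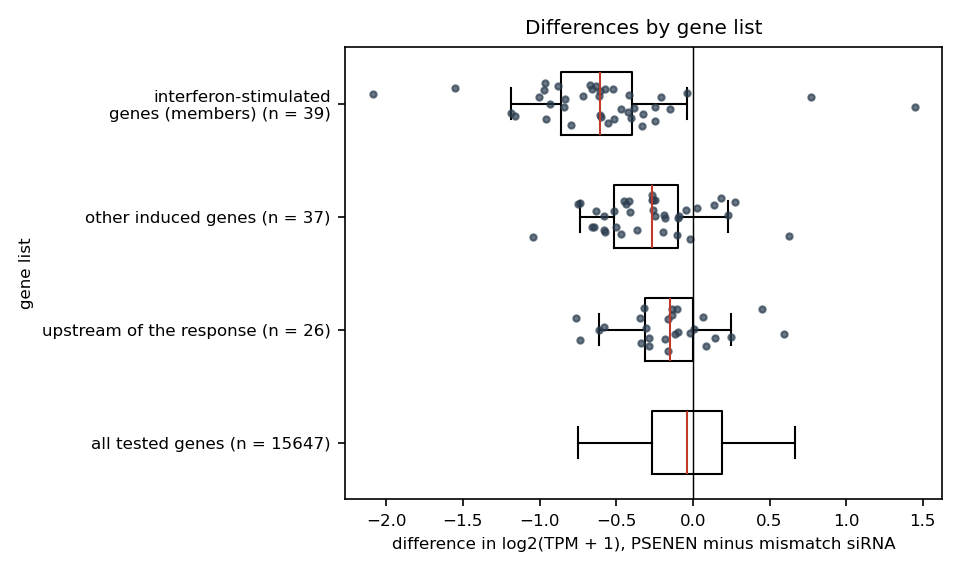
Differences in log2(TPM + 1), PSENEN siRNA minus mismatch siRNA, for the tested members, the 2 pathway lists and all tested genes; points are genes, boxes the quartiles with the median in red, and whiskers reach to the 5th and 95th percentiles. The median moves from -0.04 for all genes through -0.15 and -0.27 for the pathway lists to -0.61 for the members.

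Other measures moved with the groups. The assemblies held 167955 to 181298 transcripts per library with the PSENEN siRNA and 185198 to 193153 with the mismatch siRNA. Depth, estimated from coverage, was 9.16 to 11.9 and 11.5 to 15.6 gigabases. All 12 keratinocyte markers were tested and none was called. The difference was negative for 10, 6 were lower at an unadjusted p under 0.05, and 7 had groups apart in the lower direction. Over all tested genes these 3 shares were 54.6, 8.49 and 13.7%, and among the members 94.9, 56.4 and 64.1%. The summed level of the keratinocyte markers was 4098 to 4976 TPM against 4455 to 8987 TPM. Of the immune cell markers PTPRC, CD3E, CD79A and LYZ had no transcript in any library and the summed level was 15.0 to 22.5 TPM against 15.8 to 28.9 TPM, mostly from HLA-DRA; the 3 markers of plasmacytoid dendritic cells had none at all. The summed fibroblast markers were at 0.460 to 1.01 TPM against 1.18 to 1.47 TPM, nearly all from COL1A1. The mitochondrial share of TPM was 2.79 to 3.59% against 2.87 to 2.99%. The part of the transcript numbers, the depth and the keratinocyte markers in the lower levels of the members was not tested.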

How the data were processed

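RNA of 3 libraries per group was compared, grouped by the treatment label. The authors deposited 1 StringTie assembly per library, per the file headers, with TPM, FPKM and coverage for each transcript and no counts. The submitters' processing notes list Bowtie 0.12.2 and the builds mm8 and mm9, which are mouse builds and do not match the human files. Sources used here do not give the aligner, the StringTie options or the strandedness. Of 92476 reference transcripts named in the files, 92263 are in GENCODE 29 (GRCh38) and 90779 (98.2% of those named) have the same position and strand there, so coordinates are on GRCh38.

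A gene's value was the sum of TPM over transcripts with its reference name, left as deposited (TPM totals 886394 to 909066, of which 66.4 to 68.6% carry a gene name). No counting interval can be given without counts. A gene had to reach 1 TPM in 3 or more libraries. On log2(TPM + 1), limma 3.58.1 (R 4.3.3) fitted the group alone, with trended variances and 4 residual degrees of freedom. Calls were made at 0.05 after Benjamini-Hochberg adjustment over all genes tested. Over all genes 44 were called lower and 20 higher; with median-of-ratios scaling these were 28 and 21. With 3 libraries against 3, an exact permutation test of a single value can give no p below 0.1, so none was used. On simulated data with 200 changed genes, the steps called 41% of 2-fold and 78% of 4-fold changes in TPM + 1. Of the 129 calls, 10 were false. The changed genes were not drawn from the lowest levels, so recovery there was not measured. A member that was not called may therefore still differ.

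All 44 members are named, with values in every library where a member was called, had groups apart, differed by at least 0.5 or averaged at least 20 TPM. Of each pathway list the rule names up to 6 genes with groups apart, by size of difference, some of which are not reported here; IFNB1, IFNE, IFNA1, JAK1, TYK2, SHISA5 and the markers named were chosen after their values were seen. Members, lists, rules and alternatives were chosen with earlier results of these data known. Alternatives were pseudocounts of 0.1 and 5, a filter at 5 TPM or none, quantile normalization, median-of-ratios scaling, FPKM, assembled bases (coverage times length), unnamed transcripts added, no trend, array weights, the replicate number as a block, each library left out and, added later, a filter on the mean of all libraries. Shared sequence was measured by the 31-base words that a gene's GENCODE transcripts have in common with other genes, in percent. Python 3.11.15, NumPy 2.4.6, pandas 2.3.3 and matplotlib 3.10.9 were used for parsing, searches and figures.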

Additional observations from a re-analysis of the deposited data

How the results depend on the processing

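The negative median of the members kept its sign in every alternative run, from -0.71 with a pseudocount of 0.1 to -0.37 with one of 5; with FPKM it was -0.43. Calls were few and unsteady. SAMD9 and IFI27 were both called with all 6 libraries, none of the members with a pseudocount of 0.1, FPKM, median-of-ratios scaling, quantile normalization or the replicate block (0 each). Lower at an unadjusted p under 0.05 were then 21 of 39, 14 of 31, 20 of 39, 20 of 39 and 17 of 39 tested members, against 6.62 to 8.25% of all genes. Higher was IFITM2 with the block, against 3.73% of all genes. The calls were 1 with a pseudocount of 5, at least 5 TPM, no trend or the filter on the mean. With at least 5 TPM, which tests 25 members, 23 differences were negative and 15 had groups apart, against 55.9 and 16.3% of all genes. Leaving out each library in turn tested 34 to 39 members and called 0. Lower at an unadjusted p under 0.05 were 14 to 21, against 5.87 to 7.61% of all genes, and higher was IFITM2 without mismatch library 1, against 4.77%. Negative were 31 to 36, against 53.3 to 56.2%, and apart were 23 to 28, against 18.2 to 20.5%, with a median of -0.61 to -0.55. IFIH1 turned to 0.0201 (FPKM), 0.00129 (median-of-ratios), 0.0181 (quantile) and 0.0937 (assembled bases) and ran from -0.27 to 0.17 over left-out libraries, IFI16 from -0.30 to 0.0428 and OAS3 from -0.21 to 1.64; with unnamed transcripts OAS3 was at -0.44. The causes of these turns were not tested.

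Over all genes, lower calls were 19 (pseudocount 0.1), 28 (median-of-ratios), 28 (quantile), 69 (assembled bases), 28 (mean filter) and 2 to 14 (left-out libraries), and higher calls 9 (pseudocount 0.1), 9 (5 TPM), 33 (assembled bases), 11 (mean filter) and 2 to 9. The median of both pathway lists together was -0.25 and became -0.15 (pseudocount 5), -0.19 (no filter), -0.19 (5 TPM), -0.13 (FPKM), -0.18 (median-of-ratios), -0.19 (quantile), -0.14 (assembled bases), -0.19 (mean filter) and -0.25 to -0.18 (left-out libraries); 0 pathway genes were called with any library left out. PSENEN was at -1.98 with an adjusted p of 0.0542 (pseudocount 0.1), at -1.58 with 0.0725 (no filter) and 0.0544 (5 TPM), and from -1.66 to -1.45 over left-out libraries.

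Over all tested genes, deviations of same-numbered libraries correlated at -0.0489, 6.5e-05 and -0.0142. Those of differently numbered libraries correlated at -0.0267 to 0.0389. The replicate numbers thus showed no pairing by this measure, which cannot exclude that libraries were prepared in pairs. With the replicate block 1 gene was called lower and 0 higher (1036 and 584 at an unadjusted p under 0.05), PSENEN stayed at -1.58 with an adjusted p of 0.306, and SAMD9 and IFI27 had 0.349. Without counts, the depth behind a value near 1 TPM is unknown, which limits IFI27, RSAD2, XAF1 and the members below the filter.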
